A study of Mus musculus with 369 samples.

Results

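The cells described here are 166 microglia from brains of mice at postnatal day 7 that had been sorted for Gpnmb and Clec7a on their surface, divided by their own RNA into 45 cycling and 121 non-cycling cells. The cells of each class were chosen by their measured Mki67 and Top2a levels: a cell was called cycling when both together reached 20 CPM (counts scaled to 1000000 gene counts in the cell), and non-cycling below that. The 166 cells are all those of the gate that passed the 3 quality criteria of the labels, out of 334 passing cells in the series, where a further 35 did not pass. Within the wild-type plate 19 cells were cycling and 71 non-cycling, and within the plate labelled TREM2_KO 26 were cycling and 50 non-cycling.

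The cells came from male C57BL/6J mice, and the RNA of each was read by Smart-seq2, in which a cell sits in its own well and RNA is primed at the poly(A) tail and amplified without molecular identifiers. The 2 gated plates hold cells with the label CD45lowCD11+Gpnmb+Clec7a+, where CD45 at a low level together with CD11b marks microglia. They differ in genotype, wild type or TREM2_KO, and the labels name neither the construction of the knockout allele nor the animals. Each plate therefore counts as 1 sample, and plate and genotype cannot be told apart. The other 2 plates hold cells of the same genotypes, strain and age without the Gpnmb and Clec7a selection, and are called unselected here. Since the classes were made from the RNA of these same cells, every difference between them is a description, and no test was made.

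Microglia, macrophages that live in brain tissue, renew themselves by division, which is frequent in the first weeks after birth. A dividing cell copies its DNA in S phase with the MCM helicase, the DNA polymerases and a supply of deoxynucleotides, and then, in G2 and M phase, builds a spindle under the control of cyclin-dependent, Polo-like and Aurora kinases. Mki67 encodes a protein that coats mitotic chromosomes, and Top2a the topoisomerase that untangles replicated DNA. Messages of both accumulate from S phase towards mitosis.

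Many genes of the late cell cycle share a promoter design. The promoters printed here are those of both rule genes and of 2 genes of different phases. Plk1 encodes a kinase of mitosis, and Mcm5 a subunit of the replicative helicase. The 300 bases run from 250 before to 50 after the annotated start and are RefSeq sequence of build GRCm38.p6, given 5′ to 3′ on the strand of the gene. Capitals mark the letters searched on both strands: the cell cycle homology region (CHR), read as TTTGAA or as the variant TTCGAA, then the box CCAAT, and E2F-type letters, which were TTCCCGC, the form TTGGCGC, the form TTCGCGC and the form TTGCCGC.
Mki67, chr7:135716330-135716629, minus strand: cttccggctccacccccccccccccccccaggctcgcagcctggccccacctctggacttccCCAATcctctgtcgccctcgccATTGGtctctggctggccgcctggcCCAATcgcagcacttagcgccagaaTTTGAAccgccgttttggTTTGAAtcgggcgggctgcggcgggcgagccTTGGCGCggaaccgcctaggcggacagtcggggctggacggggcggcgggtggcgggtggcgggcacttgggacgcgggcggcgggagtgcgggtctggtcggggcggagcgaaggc
Top2a, chr11:99024140-99024439, minus strand: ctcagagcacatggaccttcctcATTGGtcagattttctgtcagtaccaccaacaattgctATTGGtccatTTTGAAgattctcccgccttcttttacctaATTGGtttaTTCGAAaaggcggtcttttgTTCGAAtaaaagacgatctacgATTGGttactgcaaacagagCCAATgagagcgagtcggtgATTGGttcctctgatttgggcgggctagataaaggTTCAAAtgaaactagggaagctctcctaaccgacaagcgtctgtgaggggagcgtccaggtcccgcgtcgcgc
Plk1, chr7:122159185-122159484, plus strand: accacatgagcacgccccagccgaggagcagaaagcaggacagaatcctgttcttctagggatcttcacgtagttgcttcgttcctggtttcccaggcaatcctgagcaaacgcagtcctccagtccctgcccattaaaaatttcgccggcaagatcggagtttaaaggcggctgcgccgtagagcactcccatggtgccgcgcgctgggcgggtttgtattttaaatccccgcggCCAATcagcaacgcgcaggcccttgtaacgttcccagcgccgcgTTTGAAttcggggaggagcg
Mcm5, chr8:75109259-75109558, plus strand: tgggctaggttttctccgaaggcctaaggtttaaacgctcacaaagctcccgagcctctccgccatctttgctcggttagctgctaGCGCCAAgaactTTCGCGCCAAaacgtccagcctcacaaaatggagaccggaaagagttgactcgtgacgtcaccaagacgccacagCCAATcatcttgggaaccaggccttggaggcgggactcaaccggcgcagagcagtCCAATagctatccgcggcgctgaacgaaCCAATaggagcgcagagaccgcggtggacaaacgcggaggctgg
The Top2a window holds 4 CHR matches and 6 CCAAT matches and 0 E2F-type matches. In Plk1 there is 1 match each of CHR and CCAAT and none of E2F type, the CHR letters lying 30 to 35 bases after the start. The Mcm5 window holds 3 E2F-type matches, of which a pair overlaps, with 3 CCAAT and 0 CHR matches, and that of Mki67 holds all 3 kinds. Such matches are letters in a window and do not show that a factor binds there.

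The classes were far apart in the 2 rule genes, with few cells near the limit. Summed Mki67 and Top2a ranged from 22.5 to 1352 CPM with a median of 217 CPM in wild-type cycling cells, and from 32.6 to 3014 CPM with a median of 304 CPM in knockout cycling cells. Of the non-cycling cells, 65 of 71 and 47 of 50 had 0 counts of both genes. The 3 wild-type cells nearest above the limit were at 22.5, 42.2 and 54.2 CPM and those nearest below at 5.02, 4.39 and 2.90 CPM. In the knockout plate the nearest above were at 32.6, 53.9 and 62 CPM and the nearest below at 18.7, 17.3 and 8.31 CPM, so that 1 wild-type and 3 knockout cells lay between 10 and 40 CPM. Both rule genes were detected together in 8 of 19 wild-type but 20 of 26 knockout cycling cells, and 10 wild-type and 4 knockout cells were called cycling on Mki67 alone. Summed over the class, Mki67 was at 370 CPM in cycling and 0.236 CPM in non-cycling wild-type cells and at 421 and 0.839 CPM in knockout cells, and Top2a at 77.2 and 0.0709 CPM and at 320.0 and 0.24 CPM. These values chose the cells and support nothing.

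**Figure D1:**
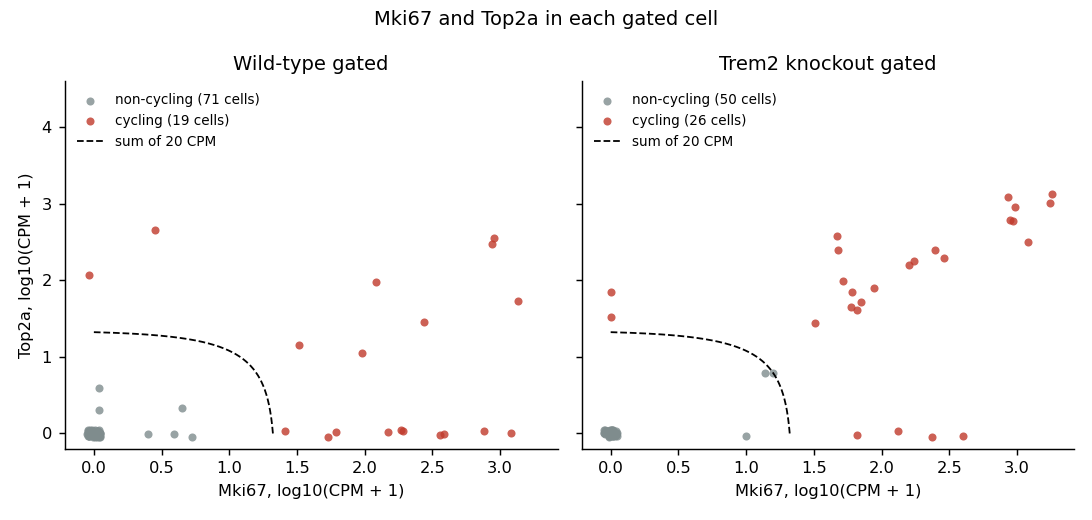
Mki67 against Top2a in each gated cell, both as log10(CPM + 1), with the limit of 20 CPM as a dashed line and points at 0 spread slightly so that they can be told apart. In the knockout plate 20 of 26 cycling cells have both genes, and in the wild-type plate 8 of 19.

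Cycling cells made up 21.1% of the wild-type gated cells (95% Clopper-Pearson interval 13.2% to 31%) and 34.2% of the knockout gated cells (23.7% to 46%). The intervals overlap, and they cover counting error only. The unselected plates held 32.1% cycling cells in wild type (21.9% to 43.6%) and 36.7% in knockout (26.8% to 47.5%). Thinning each cell to 100000 gene counts left the gated shares at the same values, and in the unselected knockout plate it gave 37.8%.

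Library depth was alike between the classes, but cycling cells had more detected genes. Median gene counts were 645377 in cycling and 620567 in non-cycling wild-type cells, and 685420 and 703755 in knockout cells, within a range of 186916 to 1030469 over the gated cells. Cycling cells had a median of 3670 detected genes against 2872 in wild type and of 5195.5 against 3561 in knockout, and at the thinned depth 3151 against 2549 and 4153 against 3280.5. Gene counts per count of added spike-in RNA had medians of 44.2 against 37.2 and 56.4 against 51.6. What part the number of detected genes has in the differences below was not tested, but values with cells matched on it, incompletely in knockout, are given.

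Trem2, the lipid-binding surface receptor that the genotype targets, was present in every plate and lower in those labelled knockout. It was at 1384 CPM in cycling and 1663 CPM in non-cycling wild-type gated cells, and at 415 and 412 CPM in knockout gated cells. Unselected cells had 1044 and 1150 CPM in wild type and 285 and 196 CPM in knockout. Knockout plates thus kept part of the Trem2 RNA, and as the labels do not name the deleted part, reads outside it cannot be set apart. Tyrobp, the adaptor through which Trem2 signals, was at 1535 and 1509 CPM in wild-type and at 1855 and 1968 CPM in knockout gated cycling and non-cycling cells.

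The cells of both classes carried microglial RNA. All 9 microglia markers fixed for this work were measured in both gated plates and none was 2-fold apart between the classes in either. Csf1r, the growth factor receptor on which microglia depend, was at 5835 CPM in cycling and 6468 CPM in non-cycling wild-type cells and at 3238 and 4047 CPM in knockout cells. Summed markers of neurons and neural progenitors, endothelium, pericytes and fibroblasts, and monocytes had a median of 0 CPM per cell in both classes of both plates, with all 8 pericyte and fibroblast markers, 8 of 10 neuronal, 4 of 8 endothelial and 6 of 9 monocyte markers at 0 counts in all gated cells. Among 10 neutrophil markers 8 were at 0, as were 8 of 10 lymphocyte and 3 of 10 oligodendrocyte lineage markers. Summed neutrophil markers had medians of 21.8 CPM in cycling and 173 CPM in non-cycling wild-type cells and of 165 and 154 CPM in knockout cells. The lymphocyte sums had medians of 18.1 and 0 CPM and of 96.8 and 0 CPM, and the oligodendrocyte lineage sums of 20.1 and 1.61 CPM and of 62.3 and 14.4 CPM. The part of these sums in the differences was not tested. No astrocyte marker was at 0 throughout, but the summed list had a median of at most 0.728 CPM. Of 5 red blood cell markers 1 was at 0, and single cells reached 28389 CPM in wild type.

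Markers of border-associated macrophages, the related macrophages of the meninges and vessels, had calls in both plates. Of 10 such markers, 2 were higher and 1 lower in wild-type cycling cells, where 17.6% and 26.6% of all measured genes were. In knockout cycling cells 1 was higher and 8 lower, where 14.7% and 13.4% of all measured genes were. Their sum per cell ranged from 28.1 to 12601 CPM in wild-type cycling and from 0 to 18680 CPM in non-cycling cells, and from 246 to 2722 and from 99.9 to 15677 CPM in knockout cells, with medians of 1298, 874, 935 and 1470 CPM. Cd163, a haemoglobin scavenger receptor, was at 1.40 against 39.1 CPM in wild type and at 0 against 30.1 CPM in knockout, and a single knockout cell held all of the latter counts. No border marker was at 0 counts over all gated cells. The part of these cells in the differences was not tested beyond the values without them given with the other alternatives.

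A gene was counted as measured at 5 CPM or more in either class of a plate, and as higher or lower in cycling cells when the summed counts of the class differed at least 2-fold, on the scale log2(CPM + 1), in the same direction as the mean CPM per cell. This is a rule of size, not a test. By this rule 1686 of 9554 genes (17.6%) were higher and 2539 (26.6%) lower in wild-type cycling cells, and 1404 of 9527 (14.7%) were higher and 1274 (13.4%) lower in knockout cycling cells. Of 8760 genes measured in both plates, 391 (4.46%) were higher in both, 414 (4.73%) lower in both, and 527 (6.02%) called in opposite directions. The opposite calls pool 2 directions, with 213 of them higher in wild-type cycling cells. They were more numerous than the shared calls of either direction alone, but fewer than those of both directions together. For 237 of the 391 and 156 of the 414 genes, a single cell held at least 50% of the counts of the higher class in at least 1 plate.

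Genes are called broadly detected here when the higher class of both plates had at least 20 CPM and at least 25% of its cells with a count at the thinned depth. That left 129 genes higher in both plates (1.47% of those measured), 32 lower in both (0.365%) and 48 in opposite directions (0.548%). At 4-fold in both plates 52 broadly detected genes were higher (0.594%), and 1 was lower (0.0114%). Of the 129 genes 66 belong to a list of cell cycle genes, and of the 52 genes 44 do, while 0 of the 32 lower genes do. Such genes are 203 of the 8760 measured in both plates. As the genes passed these limits through the class where they were higher, the counts are a description.

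**Figure D2:**
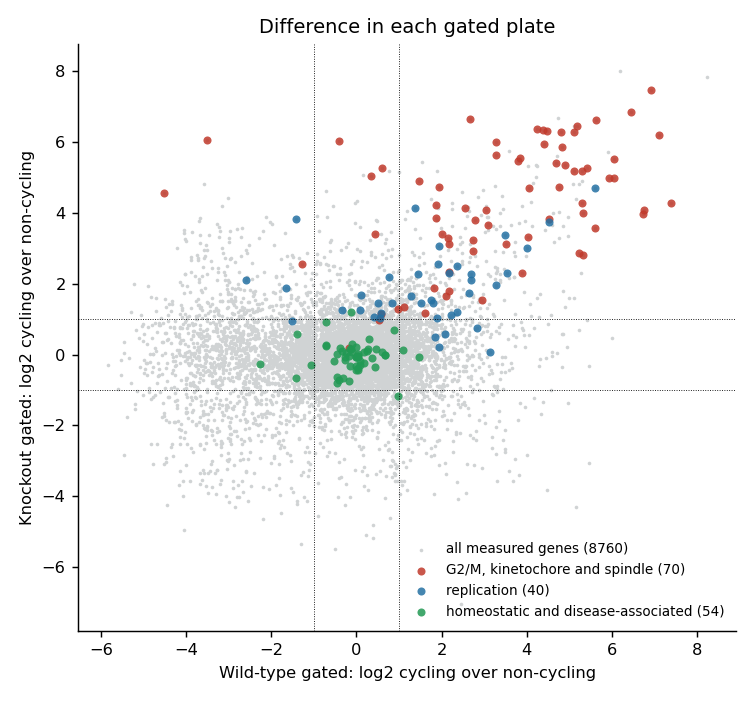
Log2 difference between cycling and non-cycling cells in the wild-type (x) and knockout (y) gated plate for 8760 genes measured in both, with dotted lines at 2-fold. Genes of mitosis (red) and replication (blue) lie mainly in the upper right, where 391 genes are called higher in both, and genes of the homeostatic and disease-associated states (green) around 0.

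The 15 broadly detected genes with the largest shared difference include both rule genes, and the list is a description that supports nothing. They are Mki67, Ccna2, Pbk, Plk1, Top2a, Cep55, Aspm, Kif20b, Birc5, Kif4, Bub1, Kif23, Casc5, Kif2c and Aurka. Cep55, which brings the final cut of cell division to the midbody, is the gene outside the cell cycle lists. Leaving the rule genes aside, the log2 differences reached from 4.81 for Aurka to 7.1 for Plk1 in wild type, and from 4.98 for Kif23 to 7.48 for Ccna2 in knockout. In non-cycling cells several of the 15 were at 0 counts: Aspm and Kif23 in wild type, Pbk and Cep55 in knockout. Against a floor of 3 counts over the class, Pbk, a kinase of mitotic cells, was at least 1275-fold higher in knockout cycling cells, and Aspm, a protein of the spindle poles, at least 927-fold higher in wild-type cycling cells.

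Kinases and cyclins of G2 and M phase were higher as a group. Of 30 listed genes 28 were measured in both plates, 23 of them higher in both and 0 lower in both, with median log2 differences of 3.12 in wild type and 4.43 in knockout where the median over all measured genes was -0.09 and 0.03. Medians of a list are over the members measured in the plate concerned, and since a low gene can pass that filter through its higher class alone, these counts and medians describe the list and support nothing. With genes at 0 counts in a class set to the floor, the knockout median was 4.95. Over all measured genes 4.46% were higher in both plates, 4.73% lower in both and 6.02% opposite, beside this and the following cell cycle lists. Ccna2 (ENSMUSG00000027715.9, chromosome 3, 36564865 to 36572150, minus strand, mm10) encodes cyclin A2, the partner of the cyclin-dependent kinases in S and G2 phase. Its level per cell ran from 0 through a median of 0 to 659 CPM in wild-type cycling cells, and from 0 through 91.6 to 840 CPM in knockout cycling cells. In non-cycling cells the highest values were 5.02 and 4.94 CPM. Over the class Ccna2 was at 135 CPM (Poisson interval 129 to 142) against 0.118 CPM in wild type and at 215 CPM (208 to 222) against 0.21 CPM in knockout. At the thinned depth 7 of 19 and 22 of 26 cycling cells had a count of it, against 0 of 71 and 1 of 50 non-cycling cells. The 0 of 71 allows a share of cells with a count at that depth of up to 5.06%, and at full depth 2.82% and 6% of non-cycling cells had a count. At the thinned depth most wild-type cells called cycling had no count of it either.

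The mitotic kinase Plk1 (chromosome 7, 122159439 to 122169873, plus strand), whose promoter is printed above, was also nearly restricted to cycling cells. It ran from 0 through 0 to 761 CPM in wild-type and from 0 through 15.2 to 394 CPM in knockout cycling cells, with no more than 11.3 and 1.24 CPM in any non-cycling cell. Class levels were 185 CPM (177 to 193) against 0.354 CPM, and 76.6 CPM (72.5 to 80.8) against 0.0599 CPM, the last being 2 counts. Ccnb1, the cyclin of mitotic entry, was at 132 against 8.32 CPM in wild type and 129.5 against 1.8 CPM in knockout. Cdc20, an activator of the ubiquitin ligase that ends mitosis, was at 187 against 0.118 CPM and at 149.8 against 6.83 CPM. Among the 5 measured genes of this list that were not higher in both plates is Nek2, a centrosome kinase called in opposite directions.

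Of 48 listed genes of the kinetochore, spindle and cytokinesis 42 were measured in both plates, with 36 higher and 0 lower in both. The medians were 4.21 and 4.09, or 4.39 and 4.31 with genes at 0 counts set to the floor. Birc5, the survivin subunit of the chromosomal passenger complex, ran from 0 through 63 to 741 CPM in wild-type and from 0 through 51.4 to 574 CPM in knockout cycling cells. It was at 180.5 against 4.23 CPM and at 170.3 against 3.71 CPM over the classes, detected in 11 of 19 and 21 of 26 cycling but 6 of 71 and 3 of 50 non-cycling cells. Kif4, a kinesin of mitotic chromosomes, was at 34.5 against 0.0236 CPM and at 79.2 against 0.030 CPM, each of the lower values being 1 count. Kif20b, a kinesin of cytokinesis, was at 119 against 1.82 CPM and at 62 against 0.629 CPM, though a single cell held 88.3% and 100% of its non-cycling counts.

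Chromatin genes of dividing cells had smaller median differences than the mitotic lists. Of 26 listed genes 24 were measured in both plates, 15 of them higher and 0 lower in both, with medians of 1.29 and 1.74. Hmgb2 (ENSMUSG00000054717.7, chromosome 8, 57511907 to 57515999, plus strand), a DNA-bending chromatin protein, ran from 0 through 34.8 to 266 CPM in wild-type and from 0 through 48.3 to 381 CPM in knockout cycling cells. In non-cycling cells the medians were 0 and the highest values 86.1 and 65.3 CPM, so the classes overlapped. Class levels were 93.5 CPM (88 to 99.3) against 5.39 CPM, a ratio of 17.4, and 97.3 CPM (92.7 to 102) against 4.34 CPM, a ratio of 22.4. It was detected in 73.7% (48.8% to 90.9%) of wild-type cycling and 11.3% of non-cycling cells, and in 76.9% (56.4% to 91%) and 16% of knockout cells. H2afx, the histone variant that is phosphorylated at DNA breaks, was at 173 against 14.9 CPM and at 159 against 8.24 CPM. Smc2, a core subunit of condensin, was at 71.9 against 3.69 CPM and at 73.9 against 4.49 CPM.

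**Figure D3:**
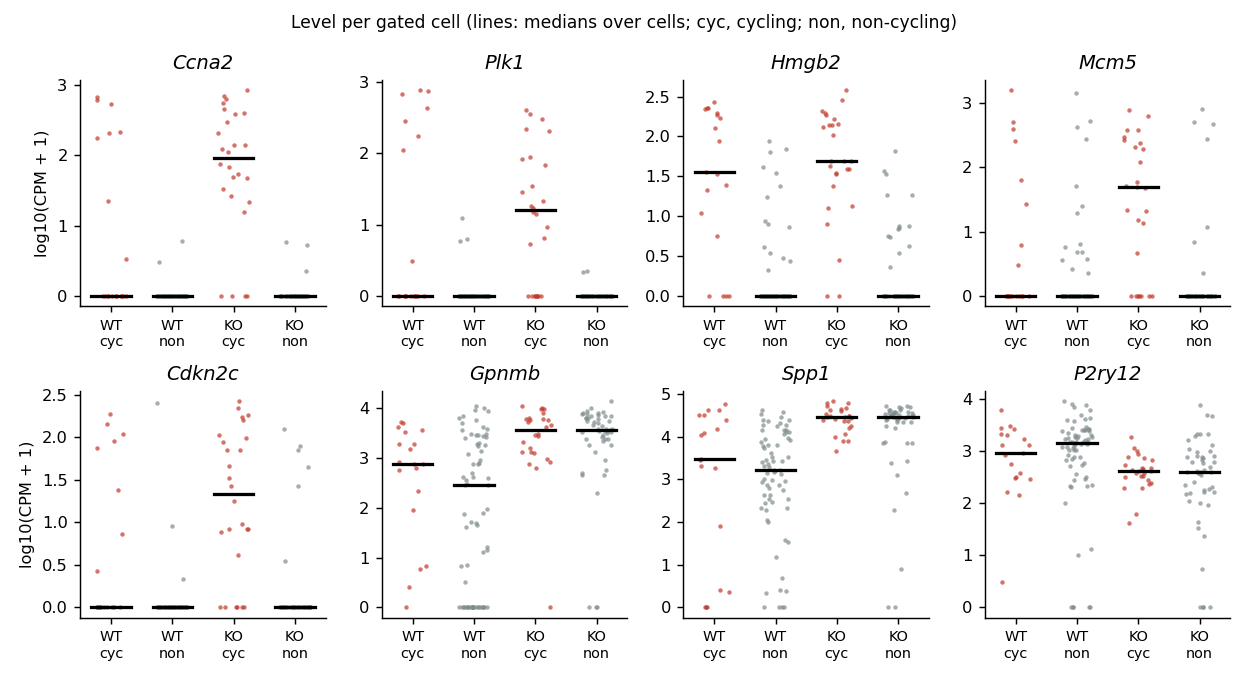
Level per gated cell, as log10(CPM + 1), of 8 genes in cycling (cyc, red) and non-cycling (non, grey) cells of the wild-type (WT) and knockout (KO) plate, with lines at the medians. The Ccna2 medians are 0 CPM in wild-type and 91.6 CPM in knockout cycling cells, and Gpnmb, Spp1 and P2ry12 overlap between the classes in both plates.

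Genes of DNA replication had smaller median differences than the mitotic lists. Non-cycling cells had counts of genes of both kinds. Of 19 listed genes of licensing and the helicase 12 were measured in both plates, 9 of them higher and 0 lower in both, with medians of 1.92 and 1.5. Mcm5 (ENSMUSG00000005410.6, chromosome 8, 75109569 to 75128439, plus strand), whose promoter with its E2F-type letters is printed above, ran from 0 through 0 to 1578 CPM in wild-type and from 0 through 48 to 768 CPM in knockout cycling cells. In non-cycling cells it reached 1425 and 793 CPM, as high as in cycling cells. Class levels were 131 CPM (124 to 138) against 38.1 CPM, a ratio of 3.43, and 147 CPM (142 to 153) against 49.7 CPM, a ratio of 2.96. Gins2, a subunit of the complex that joins the helicase, was at 116 against 25 CPM and 45.9 against 8.45 CPM.

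At the replication fork 28 of 32 listed genes were measured in both plates, 13 of them higher in both, 0 lower in both and 3 in opposite directions, with medians of 1.68 and 1.73. Asf1b, a chaperone that loads histones behind the fork, was at 66.2 against 0.378 CPM and at 147 against 4.67 CPM, although 1 cell held 70.9% of its wild-type cycling counts. Pcna, the sliding clamp of the polymerases, was at 51.5 against 47.8 CPM in wild type and at 147 against 44.9 CPM in knockout, so that only the knockout plate passed the 2-fold rule. In the nucleotide supply list 4 of 17 genes measured in both plates were higher in both, 1 was lower and 3 were opposite. Over all measured genes these shares were 4.46%, 4.73% and 6.02%. Rrm1, the large subunit of ribonucleotide reductase, ran from 0 through 28.6 to 891 CPM in wild-type and from 0 through 100.3 to 639.5 CPM in knockout cycling cells, and reached 859 and 483 CPM in non-cycling cells. Its class levels were 213 against 31.3 CPM and 184 against 59.2 CPM. Rrm2, the small subunit, whose amount follows the cell cycle, differed between the plates: it was at 31.5 against 18.1 CPM in wild type, where 1 cell held all the cycling counts, and at 220.0 against 5.09 CPM in knockout.

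Regulators of entry into the cycle were divided. Of 17 G1/S cyclins and E2F genes 11 were measured in both plates, of which 3 were higher in both (E2f8, Tfdp1 and Skp2) and 2 opposite. Over all measured genes 4.46% were higher in both and 6.02% opposite. Ccnd1, cyclin D1, was at 100.3 against 33.4 CPM in wild type but at 51.2 against 42.7 CPM in knockout. Of 22 inhibitors and p53 targets 17 were measured in both plates, and the 2 higher in both were Cdkn2c and Cdkn2d, which encode the INK4 proteins p18 and p19, inhibitors of Cdk4 and Cdk6. Cdkn2c ran from 0 through 0 to 184 CPM in wild-type and from 0 through 21 to 262 CPM in knockout cycling cells. Its class levels were 32.8 CPM (29.6 to 36.3) against 5.27 CPM and 61 CPM (57.3 to 64.8) against 6.08 CPM, with 6 of 19 and 17 of 26 cycling cells against 1 of 71 and 6 of 50 non-cycling cells. A single cell held 96.9% of the non-cycling wild-type counts.

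Of 20 recombination repair genes 11 were measured in both plates, with 4 higher in both (Exo1, Brip1, Brca1 and Blm), 3 opposite, and medians of 0.24 in wild type and 3.42 in knockout. Over all measured genes 4.46% were higher in both and 6.02% opposite. Of 68 clustered histone genes 11 were measured in both plates, 4 of them higher in both and 0 lower. Hist1h2ae was at 14.1 against 4.18 CPM in wild type and at 78.2 against 0.839 CPM in knockout. Most messages of these histones have no poly(A) tail, from which the method primes.

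**Figure D4:**
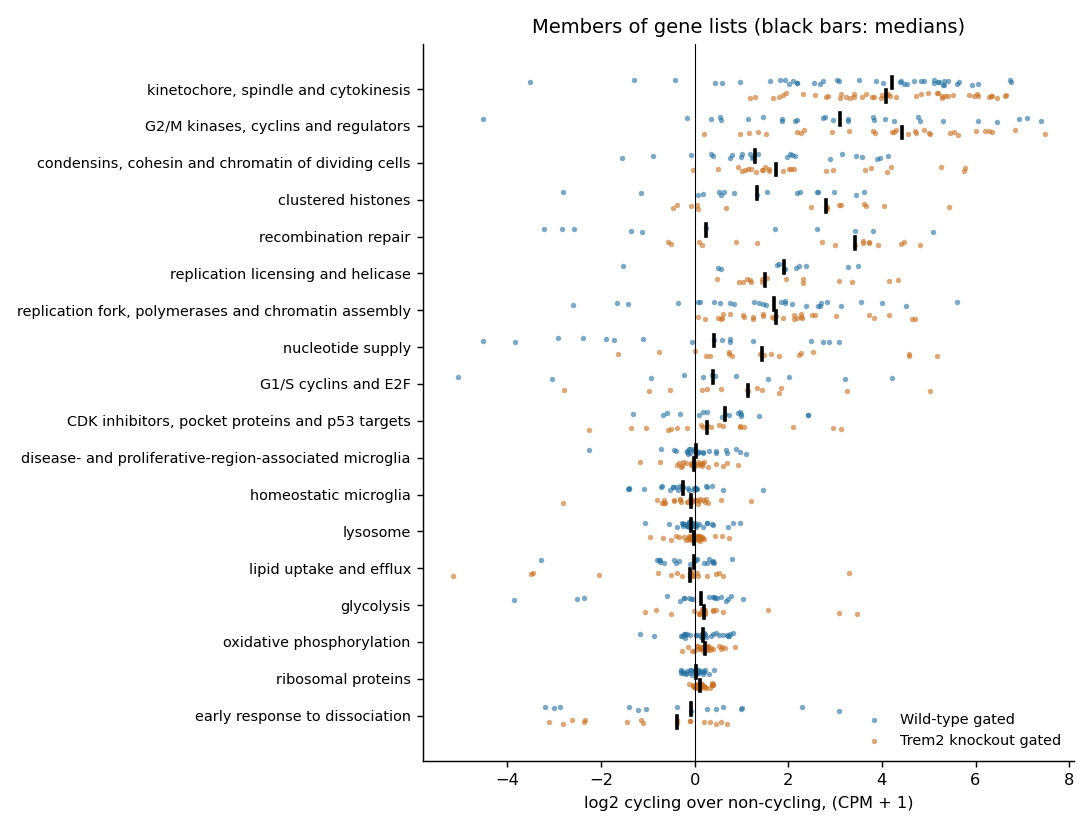
Log2 difference between cycling and non-cycling cells, in (CPM + 1), for the measured members of 18 gene lists in the wild-type (blue) and knockout (orange) gated plate, with black bars at the medians. The medians were 4.21 and 4.09 for kinetochore, spindle and cytokinesis, and 0.02 and 0.12 for ribosomal proteins.

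Counted per cell, cycling cells formed a wide range and not a uniform group. Of 78 genes of the 2 mitotic lists, wild-type cycling cells had a count for 3 to 61 at the thinned depth with a median of 18, and non-cycling cells for 1 to 17 with a median of 5. In knockout the cycling cells had 7 to 72 with a median of 47, and the non-cycling cells 1 to 20 with a median of 7. Thus 9 of 19 wild-type and 5 of 26 knockout cycling cells detected no more mitotic genes than the highest non-cycling cell. Of 51 genes of the 2 replication lists, the medians were 11 against 4 in wild type and 25.5 against 5.5 in knockout. By that count 18 of 19 and 20 of 26 cycling cells lay within the range of the non-cycling cells, of which 8 of 71 and 1 of 50 were at or above the cycling median. In knockout that range ended at a single cell with 29 replication genes and 18.7 CPM of the rule genes, just under the limit of 20 CPM. The next non-cycling cell had 21. The knockout non-cycling cell with 20 mitotic genes was also near the limit, at 17.3 CPM.

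**Figure D5:**
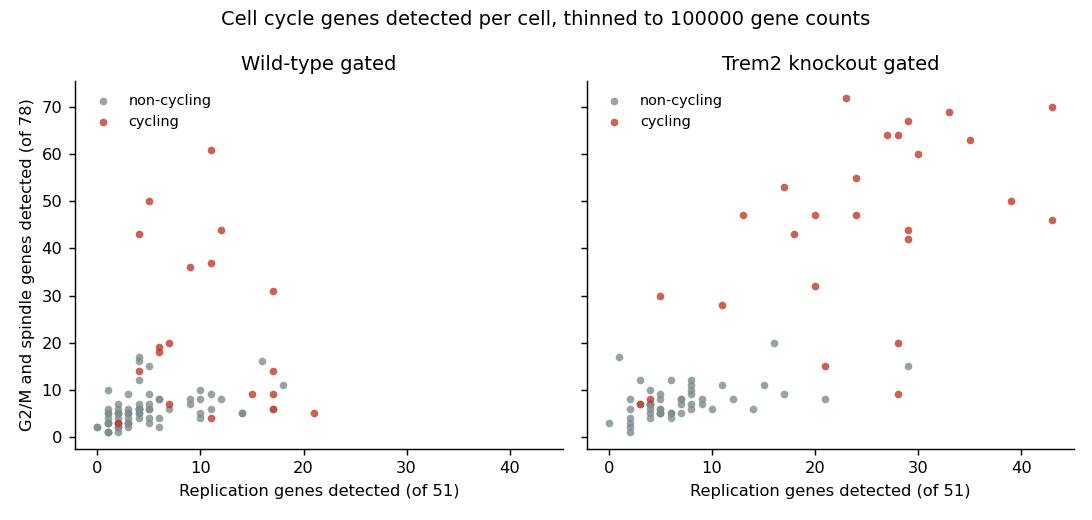
Number of replication genes (x, of 51) against number of G2/M and spindle genes (y, of 78) with a count in each gated cell at 100000 gene counts. Wild-type cycling cells (red, left) spread down into the non-cycling cells (grey), with 9 of 19 at or below the highest of these in mitotic genes, against 5 of 26 in knockout (right).

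Genes of the states that the gate selects for had no call shared by both plates. Of 27 disease- and proliferative-region-associated genes 26 were measured in both plates, with 0 higher and 0 lower in both and medians of 0.02 and -0.01. Over all measured genes 4.46% were higher and 4.73% lower in both, so nothing is read from these counts about the list. Within a plate 1 was higher and 1 lower in wild type, where 17.6% and 26.6% of all measured genes were. In knockout 0 were higher and 1 was lower, where 14.7% and 13.4% of all were. Gpnmb, the glycoprotein of the gate, was at 1692 against 1698 CPM in wild type and at 4100 against 4301 CPM in knockout, and reached 5265 CPM in wild-type cycling and 10923 CPM in wild-type non-cycling cells, with cells at 0 in every class. Clec7a, the second gate protein and a receptor for fungal glucans, was at 361 against 342 CPM and at 543 against 620 CPM. Spp1, the secreted protein osteopontin, was at 15151 against 7058 CPM in wild type (log2 1.1) and at 29061 against 26737 CPM in knockout (log2 0.12). Wild-type cycling cells ran from 0 through 2930 to 59524 CPM of Spp1 and non-cycling cells from 0 through 1682 to 41956 CPM, so the classes overlapped over nearly their whole range.

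Homeostatic genes of resting microglia had 0 of 28 members higher and 0 lower in both plates, with medians of -0.26 and -0.08. Over all measured genes 4.46% were higher and 4.73% lower in both. P2ry12, the purine receptor of resting microglia, was at 1497 against 1859 CPM in wild type and at 525 against 833 CPM in knockout, which is less than 2-fold in both. None of 37 lysosomal, 20 lipid uptake, 32 oxidative phosphorylation and 31 ribosomal protein genes measured in both plates was called in the same direction in both. Beside the shares over all measured genes, nothing is read from these counts about the lists. Scaled to spike-ins instead, the median of all measured genes moved from -0.09 to 0.08 in wild type and from 0.03 to 0.33 in knockout, so differences of that size have a direction only relative to all genes.

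Growth-related and metabolic lists had few members called in the same direction in both plates, where 4.46% of all measured genes were higher and 4.73% lower, and nothing is read from these counts about the lists. Of 20 ribosome biogenesis genes 2 were higher in both plates, Nop56 and Nop58, which form the core of the particles that methylate ribosomal RNA, 1 was lower (Rrp9) and 1 opposite. Nop56 was at 145 against 43 CPM in wild type and 121 against 25 CPM in knockout, detected in 11 of 19 and 22 of 26 cycling cells against 13 of 71 and 14 of 50. Of 14 growth factor ligands and receptors, Pdgfa was higher in both, at 13.9 against 3.28 CPM and 11.6 against 1.59 CPM, and Pdgfb lower, at 0.787 against 15.5 CPM and 0.818 against 22 CPM. In glycolysis 1 of 20 genes (Pfkp) was higher in both and 2 were opposite, and in cholesterol synthesis 1 of 16 (Insig1) was lower and 2 were opposite.

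Lower in both plates were 4 of 14 genes of the early response to dissociation, namely Egr2, Nr4a1, Ier2 and Zfp36, with 0 higher, where 4.73% of all measured genes were lower in both. Ier2 was at 1.05 against 15.5 CPM in wild type and at 5.55 against 32.3 CPM in knockout. For Nr4a1, at 0 and 0.351 CPM in cycling cells, a single cell held 100% and 97.9% of the counts of the non-cycling class. Immune lists had few members called alike in both plates, where 4.46% of all measured genes were higher and 4.73% lower, and single members of lists of this size are near that background. They were Zbp1 lower among 16 interferon response genes, H2-Ab1 higher among 13 antigen presentation genes, Il1rn higher with Tnfaip3 and Nfkbiz lower among 13 cytokine genes, and Timd4 lower among 21 phagocytosis and complement genes. Timd4 counts of the non-cycling cells came for 100% and 81.6% from 1 cell.

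Among the broadly detected genes, those lower in cycling cells by most included Csnk2a1, Wdr41, Npnt, Pxk, Fbxo38, Cant1, Snrk, Trim47 and Mrps10. Csnk2a1, a catalytic subunit of casein kinase 2 and the only one at 4-fold in both plates, ran from 0 through 2.35 to 23.7 CPM in wild-type cycling cells and from 0 through 4.34 to 321 CPM in non-cycling cells. In knockout it ran from 0 through 4.48 to 44.4 CPM and from 0 through 3.79 to 318 CPM. Its class levels were 6.39 CPM (5.01 to 8.03) against 57.1 CPM and 7.95 CPM (6.67 to 9.40) against 41.2 CPM. The medians were close and 31.6% and 34.6% of cycling cells had a count at the thinned depth, against 45.1% and 50%, while the highest non-cycling cells were far above any cycling cell.

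Outside the lists, 60 of the 129 broadly higher genes remained, from which the following were picked after their values were seen. Besides Cep55, the highest were Fam64a, Trim59, 2810417H13Rik, Cdkn3, C330027C09Rik, D2Ertd750e, Tmem48, Tubg1 and Paxip1. Here 2810417H13Rik is the older symbol of the gene of the PCNA-associated factor, and was at 36.1 against 2.86 CPM in wild type and 111 against 3.12 CPM in knockout. Cdkn3, a phosphatase that acts on Cdk1 and Cdk2, was at 47.8 against 4.75 CPM and at 47.1 against 2.25 CPM. Tubg1, the gamma-tubulin of spindle poles, was at 42.1 against 9.87 CPM and at 74.1 against 5.27 CPM.

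A rule on shares of cells in place of levels was added after the data were seen. By it 252 of 12471 genes (2.02%) were detected in at least 25 points more of the cycling than of the non-cycling cells in both plates, 65 of them in a cell cycle list, and 0 genes (0%) in at least 25 points fewer. Within a plate the rule gave 948 genes in more and 15 in fewer cells in wild type, and 1457 and 3 in knockout. Cell cycle genes were 203 of the 8760 genes measured in both plates by level. With non-cycling cells matched to cycling cells on detected genes, 141 of the 12471 genes were detected in more cells in both plates. Of these 57 were in a cell cycle list, and 3 genes were detected in fewer cells. The matching was incomplete in knockout, where the median of detected genes was 5195.5 in cycling and 4285 in matched cells. In wild type it was 3670 and 3625.

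The same contrast in the unselected plates, whose cells did not enter the choice of the genes but were divided by the same rule, is given here side by side. Of the 391 genes higher in both gated plates 334 were measured in both unselected plates, and 166 were higher in both, where 7.74% of all measured genes were. Of the 129 broadly detected genes 125 were measured and 74 higher in both, with medians of 2.16 in wild type and 2.06 in knockout. Of the 414 lower genes 323 were measured and 38 lower in both, where 6.38% of all were, with medians of -0.16 and -0.14, and of the 32 broadly detected lower genes 1 was lower in both. Ccna2 had log2 differences of 7.95 and 8.38 there, beside 6.93 and 7.48 in the gated plates. For Csnk2a1 they were -0.52 and 0.14, within 2-fold. Whether gated and unselected plates differ was not tested.

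The promoter letters were spread unevenly over these lists. Among all 32851 RefSeq promoters, 19.2% held CHR letters, 37.4% CCAAT and 9.57% E2F-type letters in the same window. Among 7158 of the 8760 genes measured in both gated plates that matched the table, the shares were 14%, 39.3% and 18.5%. Of the 391 genes higher in both plates 315 matched, with 32.4%, 55.6% and 28.6%, and of the 414 lower genes 337 matched, with 13.1%, 37.7% and 16.9%. By list, CHR letters stood in 65.2% of 23 G2/M and 72.1% of 43 kinetochore and spindle promoters, as in Plk1, and in 42.9% of 14 licensing and 14.8% of 27 fork promoters. E2F-type letters stood in 13% and 23.3% of the mitotic lists, and in 64.3% of licensing, as in Mcm5, 59.3% of fork and 78.6% of 14 repair promoters. These are shares of letters in a window, and no binding was measured.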

How the data were processed

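RNA of single sorted microglia was measured with Smart-seq2. The authors deposited raw counts per gene for 369 cells, with 23337 genes under older symbols, 92 spike-in RNAs and 0 mitochondrial genes. Named in the submitters' processing notes are HTSeq, Picard, STAR 2.5.3a, Trim Galore 0.4.3 and the build mm10. Annotation and strand are not given in the sources, and overlapping genes cannot be told apart.

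Genotype, gate and quality calls came from the labels. Cells not passing all 3 criteria (3 wild-type and 17 knockout gated) were left out, 0 gated columns were identical, and doublets were not searched for. CPM used gene counts without spike-ins. Counts were summed per class and compared as log2 of levels plus 1 CPM, which understates differences of low genes. Intervals are exact at 95%. Those on levels treat every read as independent, though amplified copies of a molecule are counted more than once, and leave out the spread between cells. Those on shares of cells cover the counting of cells only. The floor for a class at 0 was 3 counts. Thinning drew 100000 gene counts per cell, and 0 gated cells were shallower. No model was fitted and no p-value computed.

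Genes ranked as highest or lowest had to be broadly detected with 1 direction by sums and means in both plates. The other named genes, among them the list members, did not have to be broadly detected. The 15 highest and 10 lowest by the smaller log2 value were named, of which 1 is not reported here, with Mki67, Top2a, Trem2, Tyrobp, Gpnmb, Clec7a, and up to 5 agreeing and 2 opposing members of each list. Promoters printed were the first 4 of a fixed list that were named, were matched by symbol among the RefSeq promoters and held searched letters. The 25 pathway and 12 cell type lists (710 of 712 symbols matched, 10 by an older symbol) and the cells were chosen with earlier results of these data known. Coordinates are from GENCODE M21, matched by symbol. Alternatives changed the scaling (edgeR 4.0.16 trimmed means, median of ratios, spike-ins), cell weights, depth, class limit, pseudocount, level filter and cells. Scripts were tested on simulated data and run in Python 3.11.15 and R 4.3.3.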

Additional observations from a re-analysis of the deposited data

Results flagged for a closer look

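Of 203 cell cycle genes measured in both gated plates 15 were called in opposite directions, close to the 6.02% of all measured genes, so the number is no result about the cell cycle lists. The differences between the plates were not tested. Values are log2 differences of cycling over non-cycling cells, wild type first. Among replication and nucleotide genes, Pola1, the catalytic subunit of the priming polymerase, was at -2.59 and 2.11, Pold2 at -1.65 and 1.88, Mthfd2 at -1.88 and 2.23, and Dut, which removes dUTP, at -2.39 and 1.79. Cdc25a, a phosphatase that activates cyclin-dependent kinases, was at -3.04 and 1.85, and Cdk2 itself at -5.06 and 1.13. Among mitotic genes, Nek2 was at -4.51 and 4.56, Kif15 at -3.51 and 6.06, Incenp at -1.29 and 2.56, and Ncapd3 at -1.55 and 1.46. The repair genes Rad51ap1 and Fanca were at -3.22 and 3.59 and at -1.36 and 2.72. All of these, at most 2 per list, were lower in wild-type and higher in knockout cycling cells. Over all measured genes 213 of 527 opposite calls went the other way, and nothing is read from the shared direction. Cdk2, Nek2 and Rad51ap1 had 0 counts in the 19 wild-type cycling cells, and 1 cell held 85.1% of the wild-type non-cycling counts of Nek2 and 72.4% of those of Kif15.

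Of the border-associated macrophage markers, Lyve1 was at 2.46 and -7.04 and Cbr2 at 1.74 and -1.88. A single cell held 87.8% of the Lyve1 and 90.6% of the Cbr2 counts of wild-type cycling cells, and Lyve1 had 0 counts in knockout cycling cells.

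Among cells that failed the quality criteria and had over 10000 gene counts, 2 of the knockout gated plate reached 20 CPM of Mki67 and Top2a. They entered no comparison.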

How the results depend on the processing

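No paired analysis was possible because each group is 1 plate, its cells carry numbers in accession order only, and no result comes from a test. Of 144 counts and shares under the alternatives 127 stayed within 1.5 times of the reported count, or within the interval of the share. The number of genes higher in both plates was 391, and became 223 without the top cell of each gene in each class, 203 with genes measured at 20 CPM, and 252 by shares of cells. The number lower in both was 414, and became 270 with a pseudocount of 5 CPM, 137 at 20 CPM, 669 with no filter on level, 1059 without cells with border macrophage markers, and 0 by shares of cells. Opposite calls were 527, and became 287, 156 and 1303 with the pseudocount of 5 CPM, at 20 CPM and without the border marker cells. In the wild-type plate 1686 higher genes became 900 without the top cells, and 2539 lower genes became 1253 at 20 CPM. In the knockout plate 1404 higher and 1274 lower genes became 704 and 587 at 20 CPM, and 2330 and 2853 without the border marker cells. That last setting left 3 cycling cells in each plate, with 26 and 6 non-cycling cells, because Stab1 and Mrc1 are widespread. It gave Kif4 -0.0944 in wild type, Kif2c 0 and Snrk 4.48 in knockout, against the reported directions, and turned the wild-type medians of replication licensing (-1.05), G1/S genes (-0.42) and histones (-0.93) and the knockout median of inhibitors (-1.46). Leaving Stab1 and Mrc1 out of that rule, added after the data were seen, removed 10 wild-type and 4 knockout cells and changed no call count by over 1.5 times. Without the top cells the wild-type G1/S median was -0.65, and with the quality criteria ignored the wild-type repair median was -0.68. Mrps10 turned to 0.50 in wild type with cells matched on detected genes. The causes of these changes were not tested. With 19 and 26 cycling cells and no replicate plates, genes seen in few cells cannot be described beyond those cells.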
